A study of Mus musculus with 18 samples.

Results

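The genes described here are 8 components and response genes of the leukaemia inhibitory factor (LIF) and STAT3 pathway, chosen by symbol from the deposited expression table: Osm, Lifr, Il6st, Stat3, Socs3, Cish, Junb and Pim1. All 8 were found among the 25909 genes with an identifier. RNA was measured by poly(A) RNA sequencing in 18 libraries of the mouse embryonic stem cell line SGET (strain B6CBA/129), which carries a Stella reporter (SG) and an Esg1 reporter (ET), in 6 groups of 3. Stem cells kept in 2i and LIF were turned into epiblast-like cells (EpiLC) with bFGF at 12.5 ng/ml and activin A at 20 ng/ml, and these into primordial germ cell-like cells (PGCLC) with BMP4, LIF (1000 U/ml), SCF, BMP8a and EGF. The groups were EsrrbKO (KO) and WT EpiLC, which were not sorted, and KO and WT PGCLC sorted as SG+ETlow after 3 days and after 5 days. Esrrb encodes an orphan nuclear receptor of the naive pluripotency network. The KO replicates bear the names A5, B1 and A2 (KO2 in the titles), and the WT replicates the numbers 1 to 3. The late libraries are called 5 days in the titles and d6 in the descriptions, and are called day 5 here. The KO names are those of lines, so the spread among KO libraries includes differences between lines. Nothing in the labels says whether WT replicates came from separate cultures, and their spread may be technical.

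LIF binds a receptor made of LIFR and gp130 (encoded by Il6st), which activates Janus kinases and, through them, the transcription factor STAT3. Activated STAT3 switches on, among others, Socs3, Junb and Pim1, and SOCS3 in turn blocks signalling at gp130. In mouse embryonic stem cells LIF and STAT3 sustain self-renewal, and LIF is a usual component of germ cell-like cell cultures. The EpiLC medium as the labels give it has no added LIF, whereas the PGCLC medium has. EpiLC and PGCLC also differ in the other added factors, in sorting and in cell state. All of these change together with LIF in every comparison of PGCLC with EpiLC, so the part of LIF in that step was not tested.

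Before the results, 4 properties of the libraries bear on them. Library totals ran from 3032965 to 5286330 counts. Esrrb had 29 counts in EpiLC library KO A5 and 18 in KO B1, but 167 in the library labelled KO A2. WT EpiLC held 127, 113 and 79, so Esrrb RNA of the library labelled KO A2 was not below WT. KO PGCLC also held Esrrb counts (745, 499 and 359 at day 3 in A5, B1 and A2), so Esrrb RNA alone does not test the label. In PGCLC all KO libraries lay below all WT libraries for Esrrb, by 2.13 ± 0.43 (SE) on the log2 scale at day 3 (adjusted p = 0.00553) and by 1.89 ± 0.42 at day 5 (adjusted p = 0.00598). The EpiLC library labelled KO A2 also had summed levels of 1369 CPM (read counts scaled to the library total by the authors) for trophoblast markers (9 of 10 with counts, Elf5 at 0), 915 CPM for endoderm markers (8 of 8 with counts) and 628 CPM for fibroblast markers (8 of 8). The other KO EpiLC libraries had 222 and 101.5, 114.5 and 67.8, and 122 and 107 CPM, and WT EpiLC at most 75.4, 54.0 and 56.7 CPM. Most markers of each list had counts in those libraries too, so the library labelled KO A2 stood apart in the sums. In PGCLC at day 3 the trophoblast markers summed to 396 to 536 CPM in KO and 404 to 448 CPM in WT cells. Of the formative markers, which define EpiLC, the EpiLC library labelled KO A2 had 1689 CPM in sum, against 3478 and 3962 CPM in the other KO EpiLC libraries and 4909 to 5038 CPM in WT EpiLC. At day 3 against EpiLC, all 7 tested formative markers fell and 6 of 8 germ cell markers rose in KO cells, and all 7 fell and all 8 rose in WT cells. Of all tested genes, 20.6% rose and 21.4% fell in KO cells, and 29% rose and 28.5% fell in WT cells. The part of the trophoblast, endoderm and fibroblast markers in the EpiLC results was not tested.

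Stat3, Socs3 and Osm lie on chromosome 11, and genes of that chromosome were lower in every library of line A2. Their median log2 ratio to the WT mean of the same stage was -0.48, -0.42 and -0.46 in line A2 (EpiLC, day 3, day 5), against -0.02 to 0.08 in the other libraries. Genes of chromosome 1 had medians of 0.28, 0.29 and 0.31 in line A2, against -0.02 to 0.04 in the other libraries. The EpiLC library labelled KO A2 thus had the chromosome pattern of the PGCLC libraries of its line. On chromosome 8, which holds Junb, the medians were -0.18 to -0.06 in KO libraries and -0.04 to 0.05 in WT libraries. Values without line A2 are given beside the main results that they change.

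**Figure D1:**
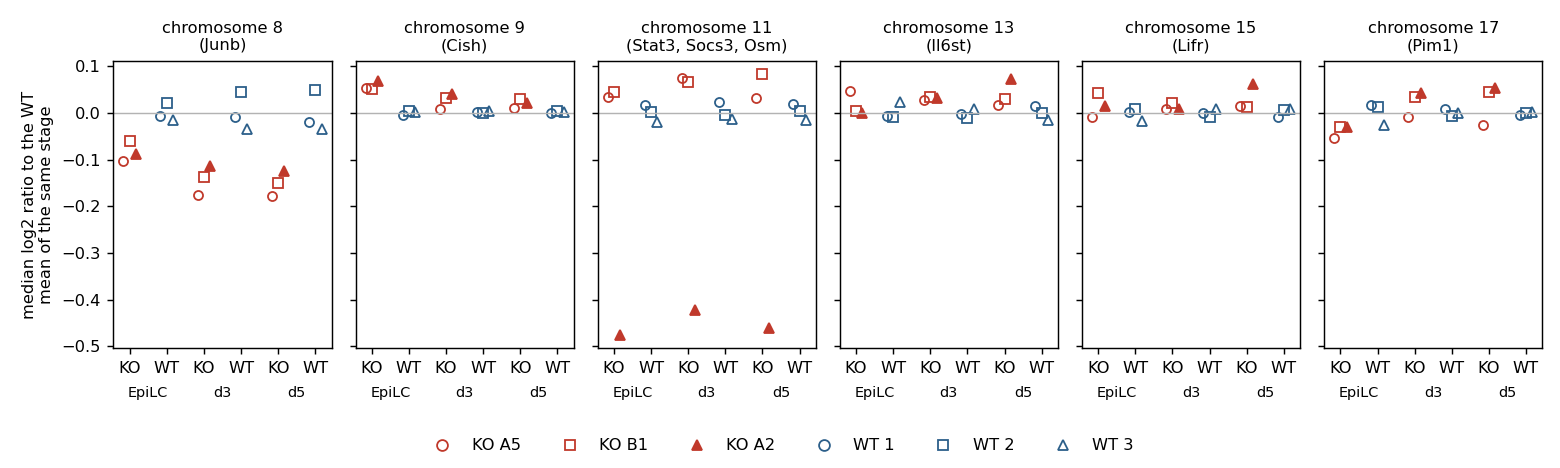
Median log2 ratio of the genes of a chromosome to the WT mean of the same stage (vertical axis) in each library, for the 6 chromosomes that hold the 8 genes; each point is 1 library, red for KO and blue for WT. On chromosome 11 the filled triangles of line A2 lie between -0.48 and -0.42, and on chromosome 8 the KO points lie below 0 at each stage.

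The 8 genes were low in EpiLC and high in PGCLC. At day 3 against EpiLC, 7 of 8 were higher in KO cells, where 42% of the 12856 tested genes changed (20.6% higher and 21.4% lower), and all 8 were higher in WT cells, where 57.5% changed (29% higher and 28.5% lower). The median log2 fold change of the 8 was 1.66 in KO cells and 2.64 in WT cells (1.58 and 2.53 without Osm), while the median of all tested genes was -0.03 and 0.00. No median was taken without line A2. The KO step was then larger for Lifr (2.65), Il6st (2.04), Stat3 (2.51), Socs3 (3.57), Junb (2.61) and Pim1 (2.15). That of Cish, 1.03 with all libraries, ran from 0.85 to 1.18 over all alternative fits. Osm is left aside here, with 2 counts in KO EpiLC. Between genotypes, 4 of 8 were higher in KO EpiLC (Stat3, Socs3, Junb and Pim1; 11.1% of tested genes changed, 6.92% higher and 4.15% lower). At day 3, 1 of 8 was lower in KO cells (Cish; 10.2% of genes changed, 5% higher and 5.19% lower), and at day 5, 1 of 8 was higher (Osm; 17.5% changed, 9.83% higher and 7.62% lower). The median KO against WT difference of the 8 was 0.68 in EpiLC, 0.10 at day 3 and -0.04 at day 5 (0.76, 0.01 and -0.14 without Osm), against 0.01 for all tested genes at each stage. Without the library labelled KO A2 the EpiLC differences were smaller for Stat3 (1.16), Socs3 (1.12), Junb (2.08), Pim1 (0.32), Il6st (0.10) and Lifr (-0.70). That of Cish, 0.60 with all libraries, ran from 0.45 to 0.71 over all alternative fits. A change means an adjusted p under 0.05 in edgeR's quasi-likelihood test, with 1 spread per gene over all 6 groups. In a fit of the 2 EpiLC groups alone, 0 of the 8 passed between genotypes. Over all genes 2 passed in that fit, against 1424 in the fit of all groups. The comparisons share libraries, so they are not independent of each other.

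**Figure D2:**
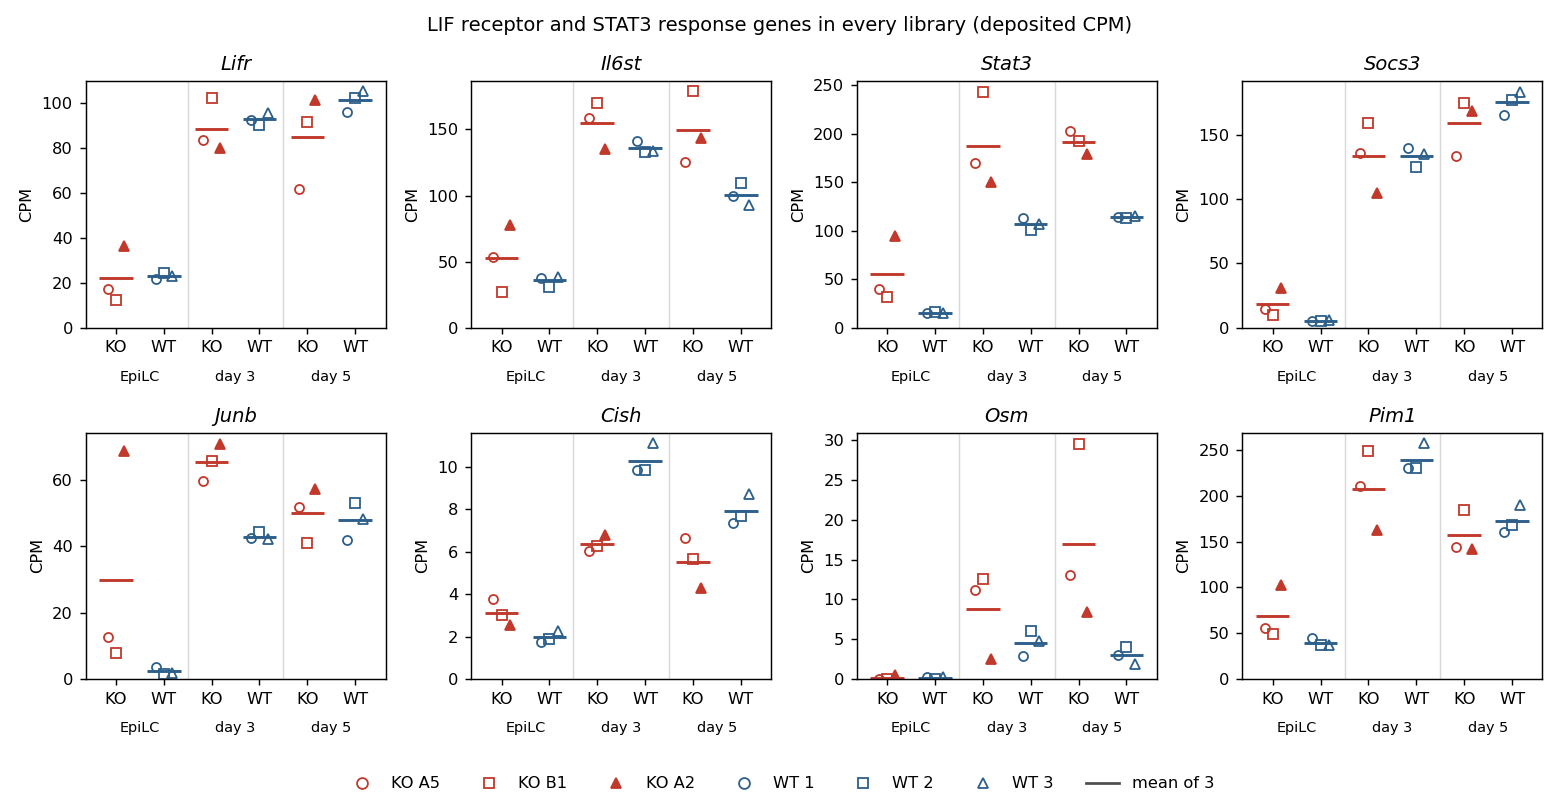
Deposited CPM (vertical axis, from 0) of the 8 genes in each of the 18 libraries; points are libraries, horizontal bars are means of 3, KO in red and WT in blue, with line A2 as filled triangles. In every panel the EpiLC means lie below the PGCLC means, and in the Junb panel the EpiLC library labelled KO A2 (68.6 CPM) lies level with KO PGCLC at day 3 (59.7 to 70.8 CPM).

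Osm (ENSMUSG00000058755, chr11:4236420-4241026, plus strand, build GRCm38) encodes oncostatin M, a cytokine of the same family that signals through gp130. In mouse its main partner receptor is OSMR, and Osmr was at 0 counts in all PGCLC and WT EpiLC libraries. Osm had 0, 0 and 2 counts in KO EpiLC (A5, B1, A2) and 1, 0 and 1 in WT EpiLC, so no fold between genotypes is given there. Day 3 levels were 11.2, 12.5 and 2.52 CPM in KO PGCLC and 2.89, 6.05 and 4.78 CPM in WT PGCLC. The KO libraries straddled the WT range, with A5 and B1 above it and A2 below. Day 5 levels were 13.03, 29.5 and 8.38 CPM in KO PGCLC and 3.06, 4.06 and 1.89 CPM in WT PGCLC. Here every KO library lay above every WT library, with B1 the highest.

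Osm summed over 3 libraries came to 100 counts at day 3 against 2 in EpiLC in KO cells, a ratio of 53.8 after correction for depth (95% counting interval 14.5 to 450.2). Both KO EpiLC counts came from the library labelled KO A2, and the other KO EpiLC libraries held 0. In WT cells 65 counts stood against 2, a ratio of 28.5 (7.58 to 240.5). These intervals cover counting error only. Between genotypes the log2 difference at day 5 was 2.47 ± 0.57 (SE, n = 3 against 3, adjusted p = 0.00678, edgeR). Leaving out KO B1, its highest library, gave 1.80 (adjusted p = 0.0448). At day 3 it was 0.92 ± 0.56 (adjusted p = 0.336), and without the 3 libraries of line A2 it was 1.33 (adjusted p = 0.0169). Osm is also made by blood cells. Blood cell markers summed to 63.6, 48.8 and 23.4 CPM in KO PGCLC (A5, B1, A2) and 40.5 to 41.7 CPM in WT PGCLC at day 3. They summed to 40.0 to 80.4 CPM in KO and 40.8 to 56.8 CPM in WT PGCLC at day 5, with 7 of 8 in the table and Ptprc, Tyrobp and Lyz2 at 0 in both groups. Their part in the Osm values was not tested. In a bulk library more cells that make an RNA and more RNA per cell cannot be told apart, here or in any result that follows.

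Lifr (ENSMUSG00000054263, chr15:7090614-7197489, plus strand) encodes the LIF-binding receptor chain. It had 17.2, 12.4 and 36.3 CPM in KO EpiLC and 21.5, 24.3 and 23.1 CPM in WT EpiLC. At day 3 it had 83.4, 102 and 79.8 CPM in KO PGCLC and 92.2, 89.9 and 95.6 CPM in WT PGCLC. At day 5 it had 61.5, 91.3 and 101 CPM in KO PGCLC and 95.8, 102 and 105 CPM in WT PGCLC. The genotypes overlapped at each stage, and the library labelled KO A2 was the highest EpiLC library while A5 and B1 were the lowest. From EpiLC to day 3 Lifr rose by 2.00 ± 0.28 on the log2 scale in KO cells (adjusted p = 4.44e-05) and by 1.95 ± 0.28 in WT cells (adjusted p = 2.33e-05). Without line A2 the KO step was 2.65. The difference between the steps was 0.04 ± 0.39 (interaction, adjusted p = 0.968) with all libraries and 0.70 (adjusted p = 0.0476) without line A2, where the KO step was the larger. The KO against WT differences with all libraries were -0.10 ± 0.29, -0.06 ± 0.25 and -0.25 ± 0.25 in EpiLC, at day 3 and at day 5 (adjusted p = 0.856, 0.926 and 0.541). Without line A2, Lifr was lower in KO cells in EpiLC (-0.70, adjusted p = 0.0206) and at day 5 (-0.41, adjusted p = 0.0155).

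Il6st (ENSMUSG00000021756, chr13:112464070-112510086, plus strand) encodes gp130, the signalling chain shared by the cytokines of the family. It had 53.1, 26.9 and 77.4 CPM in KO EpiLC and 37.7, 30.7 and 38.6 CPM in WT EpiLC. By day 3 it had 159, 169.8 and 136 CPM in KO PGCLC and 141, 133 and 134 CPM in WT PGCLC. By day 5 it had 126, 179 and 144 CPM in KO PGCLC and 99.5, 109.6 and 92.9 CPM in WT PGCLC. The groups overlapped in EpiLC and at day 3, and at day 5 all KO libraries lay above all WT libraries. Il6st rose by 1.55 ± 0.25 (log2, adjusted p = 0.000167) from EpiLC to day 3 in KO cells and by 1.87 ± 0.26 (adjusted p = 1.83e-05) in WT cells. Without line A2 the KO step was 2.04. The day 5 difference between genotypes, 0.57 ± 0.24, missed the threshold (adjusted p = 0.116), and without line A2 it was 0.58 (adjusted p = 0.0410). In EpiLC the difference was 0.52 ± 0.26 (adjusted p = 0.199). It was 0.83 (adjusted p = 0.00752) with KO B1 left out and 0.10 with the library labelled KO A2 left out.

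Stat3 (ENSMUSG00000004040, chr11:100885098-100939540, minus strand) encodes the transcription factor that the receptor activates. It had 40.2, 32.0 and 94.1 CPM in KO EpiLC and 15.2, 15.7 and 15.3 CPM in WT EpiLC. The levels at day 3 were 169, 243 and 150.1 CPM in KO PGCLC and 113, 101 and 107 CPM in WT PGCLC. The levels at day 5 were 203, 192 and 179 CPM in KO PGCLC and 114, 113 and 115 CPM in WT PGCLC. At all 3 stages every KO library lay above every WT library, and the WT libraries of each stage spanned a smaller range than the KO libraries. In EpiLC the log2 difference was 1.81 ± 0.32 (n = 3 against 3, adjusted p = 0.00659, edgeR), and it was 1.16 (adjusted p = 0.00241) without the library labelled KO A2. At day 3 it was 0.82 ± 0.27 (adjusted p = 0.0651) and at day 5 it was 0.75 ± 0.27 (adjusted p = 0.0671), both short of the threshold. Both passed it without line A2, with 0.94 (adjusted p = 6.15e-07) and 0.78 (adjusted p = 4.53e-06), and in fits of the compared groups alone (0.81 and 0.75, adjusted p = 0.0141 and 0.000768). The day 3 difference also passed in DESeq2 (adjusted p = 0.0440), and the day 5 difference with the replicate name as a random block (adjusted p = 0.0460). In a fit of the 2 EpiLC groups alone the EpiLC difference was 1.83 and missed the threshold (adjusted p = 0.156), and in that fit Socs3, Junb and Pim1 missed it as well (adjusted p up to 0.231).

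Stat3 rose from EpiLC to day 3 in both genotypes, by 1.75 ± 0.28 in KO cells (adjusted p = 0.000168) and by 2.74 ± 0.32 in WT cells (adjusted p = 3.44e-06). Without line A2 the KO step was 2.51. The difference between the steps was -0.99 ± 0.42 (adjusted p = 0.159) and -0.22 without line A2; it passed the threshold without KO EpiLC B1 (-1.27, adjusted p = 0.0331). Stat3 overlaps Stat5a on the other strand. The library kit marks strand, but no source used here gives the strand setting of the counting, and the count of Stat3 could hold some Stat5a reads. For comparison, Stat5a averaged 3.52 ± 0.50 CPM in KO EpiLC and 3.06 ± 0.86 CPM in WT EpiLC (SD, n = 3).

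Socs3 (ENSMUSG00000053113, chr11:117966079-117970047, minus strand) encodes the feedback inhibitor of gp130 signalling. It had 14.6, 10.1 and 30.7 CPM in KO EpiLC and 4.81, 5.24 and 6.27 CPM (19, 22 and 25 counts) in WT EpiLC. Its levels at day 3 were 136, 159 and 105 CPM in KO PGCLC and 139, 125 and 135 CPM in WT PGCLC. Its levels at day 5 were 133, 174 and 168 CPM in KO PGCLC and 166, 177 and 183 CPM in WT PGCLC. All KO EpiLC libraries lay above all WT EpiLC libraries, and the genotypes overlapped in PGCLC. In EpiLC Socs3 was higher in KO cells by 1.73 ± 0.35 (log2, adjusted p = 0.0113), and by 1.12 (adjusted p = 0.0283) without the library labelled KO A2. The call was lost without WT 1 (adjusted p = 0.0529), without WT 2 (0.0527) and with the replicate name as a random block (0.0598). At day 3 the difference was 0.01 ± 0.24 (adjusted p = 0.988) and at day 5 it was -0.14 ± 0.24 (adjusted p = 0.730).

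From EpiLC to day 3 Socs3 rose by 2.83 ± 0.27 in KO cells (adjusted p = 1.68e-06) and by 4.55 ± 0.32 in WT cells (adjusted p = 2.89e-08), in each genotype the largest step of the 8 genes apart from Osm. The KO step was smaller by 1.72 ± 0.42 (interaction, adjusted p = 0.0263). Of the 8 genes, 2 had a step that differed between genotypes (Socs3 and Cish, both lower), where 6.59% of tested genes did (2.96% higher and 3.63% lower). Without line A2 the KO step was 3.57. Without the library labelled KO A2 the Socs3 interaction was -1.11 (adjusted p = 0.0313), and without line A2 at any stage it was -0.97 (adjusted p = 0.0158). The interaction missed the threshold without any 1 of the 3 WT EpiLC libraries (-1.83 to -1.64) or of the 3 WT PGCLC libraries of day 3 (-1.76 to -1.68), with adjusted p from 0.0510 to 0.0750. It also missed it in a fit with the chromosome median as an offset (-1.84, adjusted p = 0.0619) and in the fit of the 4 groups alone (-1.74, adjusted p = 0.0690).

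STAT factors bind a palindrome, and the bases before the start sites of these genes were searched for its core letters TTCNNNGAA and for TCAAGGTCA, the motif bound by Esrrb, on both strands. The windows are the 250 bases before each RefSeq start site on build GRCm38.p6 (for Socs3 at 117969366, inside the gene as given above), and 7 of the 8 genes have windows (9 windows in all; none for Osm). Of 32544 windows of all genes, 7.043% hold the STAT letters and 0.375% the Esrrb letters; counted by gene, as for the 7, the shares are 8.171% and 0.411%. Socs3 was the 1 gene of the 7 with the STAT letters, 154 to 146 bases before its start site, and 0 of the 7 held the Esrrb letters. The windows of Socs3 and Junb, the pair with the largest steps in WT cells apart from Osm, are shown, with capitals for the STAT match; Junb has none in this window. A match describes the sequence and does not show binding.
Socs3 (GRCm38.p6, chr11:117969367-117969616, minus strand): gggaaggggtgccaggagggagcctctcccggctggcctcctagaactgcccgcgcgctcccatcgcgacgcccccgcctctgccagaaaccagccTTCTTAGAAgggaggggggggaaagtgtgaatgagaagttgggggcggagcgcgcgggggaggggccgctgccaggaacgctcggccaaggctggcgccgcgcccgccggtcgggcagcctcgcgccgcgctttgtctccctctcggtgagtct
Junb (GRCm38.p6, chr8:84978749-84978998, minus strand): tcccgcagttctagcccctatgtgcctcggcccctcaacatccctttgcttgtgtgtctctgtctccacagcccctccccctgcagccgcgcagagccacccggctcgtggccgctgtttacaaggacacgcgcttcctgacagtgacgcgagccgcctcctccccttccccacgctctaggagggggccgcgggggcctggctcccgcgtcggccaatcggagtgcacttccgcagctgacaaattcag

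Cish (ENSMUSG00000032578, chr9:107296026-107302784, plus strand) encodes a further SOCS family inhibitor, known best as a target of STAT5. It had 3.76, 3.04 and 2.54 CPM in KO EpiLC and 1.77, 1.90 and 2.26 CPM (7, 8 and 9 counts) in WT EpiLC. Day 3 levels were 6.04, 6.26 and 6.80 CPM in KO PGCLC and 9.87, 9.84 and 11.2 CPM in WT PGCLC. Day 5 levels were 6.64, 5.68 and 4.29 CPM in KO PGCLC and 7.34, 7.71 and 8.73 CPM in WT PGCLC. The KO libraries lay above the WT libraries in EpiLC and below them at days 3 and 5, with no overlap at any stage. The day 3 difference was -0.68 ± 0.20 on the log2 scale (adjusted p = 0.0426), and the EpiLC and day 5 differences were 0.60 ± 0.34 and -0.52 ± 0.20 (adjusted p = 0.255 and 0.0897). The day 3 call was lost when any 1 of the 6 day 3 libraries was left out (-0.73 to -0.62, adjusted p 0.0835 to 0.146), in DESeq2 (-0.68, adjusted p = 0.0982) and with no filter on low counts (adjusted p = 0.0883).

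From EpiLC to day 3 Cish rose by 1.03 ± 0.23 in KO cells (adjusted p = 0.00175) and by 2.31 ± 0.23 in WT cells (adjusted p = 7.22e-07). The KO step was smaller by 1.27 ± 0.35 (interaction, adjusted p = 0.0414). Of the 12 libraries in that comparison, leaving out KO EpiLC A5, KO PGCLC A5 or B1, or any 1 of the 6 WT libraries lost the call (-1.38 to -1.13, adjusted p 0.0562 to 0.104), as did DESeq2 (adjusted p = 0.0844), a fit with no filter on low counts (0.0599) and the fit of the 4 groups alone (0.0564). Cish and the antisense gene Gm17041 overlap, and their reads cannot be separated without the strand setting.

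Junb (ENSMUSG00000052837, chr8:84974484-84978718, minus strand) encodes an AP-1 transcription factor and is an immediate early gene as well as a STAT3 target. It had 12.7, 7.87 and 68.6 CPM in KO EpiLC and 3.80, 1.43 and 1.76 CPM (15, 6 and 7 counts) in WT EpiLC. At day 3 it had 59.7, 65.6 and 70.8 CPM in KO PGCLC and 42.4, 44.3 and 42.1 CPM in WT PGCLC. At day 5 it had 51.9, 40.8 and 57.2 CPM in KO PGCLC and 42.0, 53.0 and 48.4 CPM in WT PGCLC. The KO libraries lay above the WT libraries in EpiLC and at day 3, and the groups overlapped at day 5. In EpiLC the log2 difference was 3.65 ± 0.71 (adjusted p = 0.0106), and 2.08 (adjusted p = 0.00241) without the library labelled KO A2. The call was lost without WT 2 (3.39, adjusted p = 0.0532), without WT 3 (3.49, adjusted p = 0.0525) and with the replicate name as a random block (3.06, adjusted p = 0.0778). At day 3 the difference was 0.62 ± 0.49 (adjusted p = 0.468), and without line A2 it was 0.54 (adjusted p = 0.00702). At day 5 it was 0.07 ± 0.49 (adjusted p = 0.950). Junb overlaps Prdx2 on the other strand, so the same limit on its counts holds.

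In KO cells the step of Junb from EpiLC to day 3, 1.11 ± 0.50, missed the threshold (adjusted p = 0.0842). In WT cells Junb rose by 4.14 ± 0.69 (adjusted p = 0.000121). The KO step was 1.43 (adjusted p = 0.0317) with the replicate name as a block, 1.70 (adjusted p = 0.0101) in limma-trend and 2.69 (adjusted p = 4.07e-08) without the library labelled KO A2. The interaction was -3.03 ± 0.88 (adjusted p = 0.0506), and -1.46 (adjusted p = 0.0227) without that library. It also passed the threshold without KO EpiLC A5 (-3.41, adjusted p = 0.0206) or B1 (-3.48, adjusted p = 0.00722), and in DESeq2 (-3.04, adjusted p = 0.00381). A list of 20 immediate early and dissociation response genes, which includes Junb and Socs3, summed to 2361 CPM in the library labelled KO A2, to 1784 and 1551 CPM in the other KO EpiLC libraries and to 1612 to 1734 CPM in WT EpiLC. Of its 17 other tested genes, 4 were higher in KO EpiLC (Jun 1.70, Zfp36 1.63, Klf6 1.56 and Btg2 1.50 on the log2 scale; 1.05, 0.70, 0.72 and 1.07 without line A2) and 0 lower. At day 3, 5 were higher and 1 lower in KO PGCLC, with Egr1 at 2.05 ± 0.27 (adjusted p = 0.000190). Of all tested genes, 6.92% were higher and 4.15% lower in KO EpiLC, and 5% higher and 5.19% lower in KO PGCLC at day 3. The list summed to 2080 to 2093 CPM in KO PGCLC and 1971 to 1992 CPM in WT PGCLC at day 3. The part of cell handling in the Junb and Socs3 values was not tested.

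Pim1 (ENSMUSG00000024014, chr17:29490753-29496112, plus strand) encodes a serine/threonine kinase that supports survival. In the annotation it overlaps the predicted gene Gm26885. It had 55.3, 49.2 and 103 CPM in KO EpiLC and 44.3, 37.6 and 37.6 CPM in WT EpiLC. By day 3 it had 211, 249 and 162 CPM in KO PGCLC and 231, 229.8 and 258 CPM in WT PGCLC. By day 5 it had 145, 185 and 141 CPM in KO PGCLC and 161, 168 and 189.9 CPM in WT PGCLC. The KO libraries lay above the WT libraries in EpiLC, and the genotypes overlapped in PGCLC. The EpiLC difference of 0.76 ± 0.24 (adjusted p = 0.0494) rested on the library labelled KO A2, without which it was 0.32 (adjusted p = 0.300). It also missed the threshold without WT 1 (0.84, adjusted p = 0.101), WT 2 (0.72, 0.144) or WT 3 (0.72, 0.142), and with the replicate name as a random block (0.67, 0.121). With RLE size factors (0.76, adjusted p = 0.0512) and with no filter on low counts (0.77, 0.0649) it was just short as well. In all, 9 of 14 alternatives lost the call. Pim1 rose from EpiLC to day 3 by 1.58 ± 0.23 in KO cells (adjusted p = 5.82e-05) and by 2.53 ± 0.24 in WT cells (adjusted p = 3.84e-07). The KO step was 2.15 without line A2. The interaction was -0.96 ± 0.32 (adjusted p = 0.0807), and it passed the threshold without KO EpiLC A5 (-1.11, adjusted p = 0.0453) or B1 (-1.15, adjusted p = 0.0231), and in DESeq2 (-0.96, adjusted p = 0.0473). It was -0.52 (adjusted p = 0.146) with the library labelled KO A2 left out and -0.38 (adjusted p = 0.132) with line A2 left out at every stage.

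**Figure D3:**
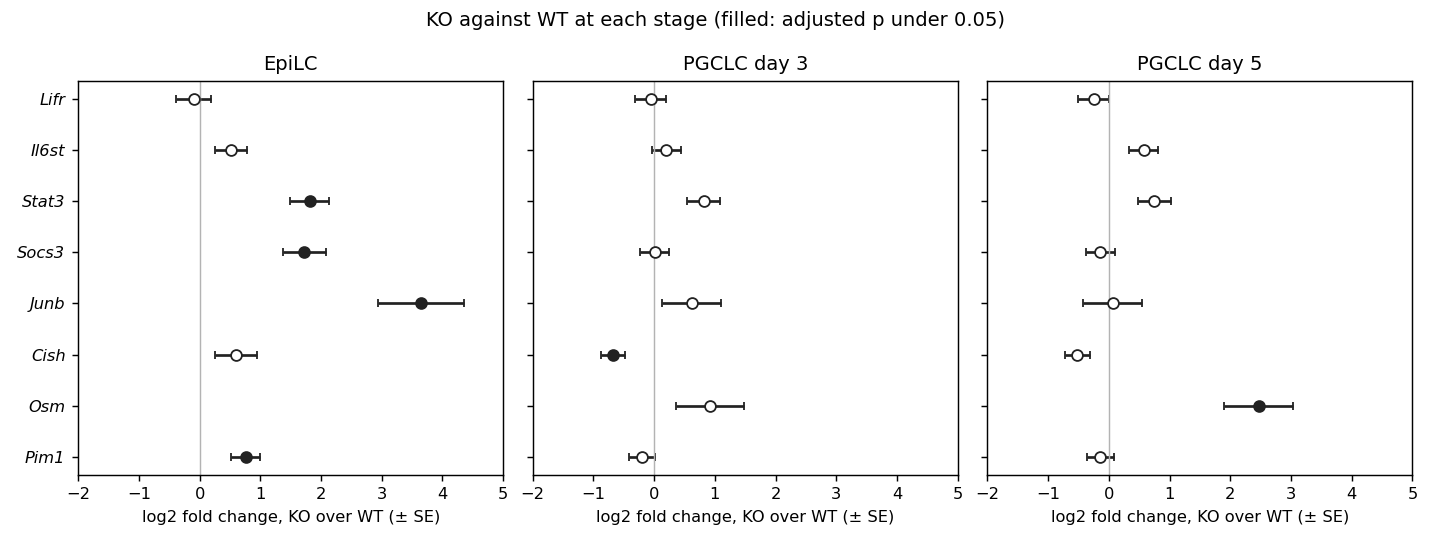
Log2 fold change of KO over WT (horizontal axis, points with SE bars from edgeR) for the 8 genes in EpiLC, at day 3 and at day 5; filled points passed the threshold. Stat3, Socs3, Junb and Pim1 are filled in EpiLC, Cish at day 3 and Osm at day 5; Osm has no point in EpiLC, where each group held 2 counts.

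**Figure D4:**
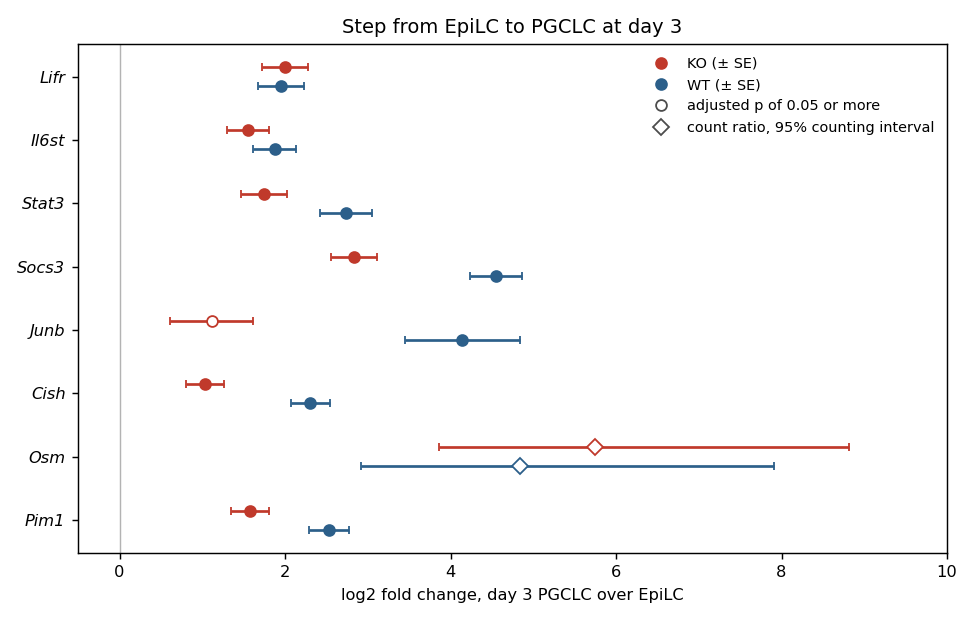
Log2 fold change from EpiLC to PGCLC at day 3 (horizontal axis) in KO (red) and WT cells (blue) for the 8 genes, with SE bars, and with the count ratio and its 95% counting interval for Osm. With all libraries the KO and WT points of Lifr lie together at about 2.00 and 1.95, while those of Socs3 lie at 2.83 and 4.55.

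Between day 3 and day 5, 0 of the 8 genes changed in KO cells (0.552% of tested genes did, 0.366% higher and 0.187% lower) and 0 of 8 in WT cells (0.77% did, 0.288% higher and 0.482% lower) in edgeR, DESeq2 or limma-trend. At an unadjusted p under 0.05, 0 of 8 passed in KO cells and 1 of 8, Pim1 (-0.49 ± 0.22), in WT cells. In a fit without line A2, Pim1 was lower at day 5 in both genotypes (-0.51 in KO cells, adjusted p = 0.00709, and -0.49 in WT cells, adjusted p = 0.000748), and Socs3 was higher in WT cells (0.38, adjusted p = 0.00595). In a fit of the 2 WT groups alone, 3 of 8 passed: Il6st (-0.45), Socs3 (0.38) and Pim1 (-0.49). The difference of this step between genotypes passed for 0 of 8 genes and for 0% of all tested genes, with 0 of 8 at an unadjusted p under 0.05 and 0 of 8 in DESeq2 and limma-trend.

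Levels per kilobase of exon allow the genes to be set beside each other roughly. The length is the union of all annotated exons of a gene, which can exceed that of its main transcript and lower the level. For Cish the union is 6419 bases, most of the span of the gene, so its place among the 8 is uncertain. In PGCLC at day 3, in KO and WT cells, Pim1 had 61.6 and 71.2 CPM per kb, Socs3 46.04 and 46.03, Junb 28.4 and 18.7, Stat3 19.7 and 11.2, Il6st 13.9 and 12.2, Lifr 8.21 and 8.59, Osm 3.85 and 2.01, and Cish 0.992 and 1.603. Pim1 was thus the highest and Socs3 the next in both genotypes. Ordered by mean CPM over the 6 groups, the 2 EpiLC groups were the lowest for each gene. For Stat3 the order from the lowest was WT EpiLC, KO EpiLC, WT day 3, WT day 5, KO day 3 and KO day 5, and the last 2 groups overlapped. For Lifr the 2 EpiLC groups overlapped, as did KO day 5 with KO day 3 and KO day 3 with WT day 3. For Cish the top group was WT day 3, then WT day 5, then KO day 3, each apart from the next.

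Among genes with at least 5 CPM on average, those whose log2 CPM ran most closely with Lifr over the 18 libraries were Dlc1 (Pearson r = 0.981), Plekhg3 (0.981) and Zyg11a (0.980). For Socs3 they were B4galt6 (0.987), H2afy (0.987) and Ypel2 (0.986). The libraries share 3 stages, so these values describe likeness in stage pattern.

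The wider pathway was described through 51 other genes listed by role, of which 44 passed the filter on low counts. The counts of genes that rose or fell are read against the 20.6% higher and 21.4% lower of all tested genes in KO cells and the 29% and 28.5% in WT cells. At day 3 against EpiLC, 2 of 3 other ligand genes fell in KO cells and 1 of 3 in WT cells. Lif was 1 of the 2 in KO cells (-1.63 ± 0.44, adjusted p = 0.00810), a call lost without the library labelled KO A2 (-0.53, adjusted p = 0.0579) and held without line A2 at every stage (-0.68, adjusted p = 0.0161). Further, 6 of 10 other kinases and STATs rose in KO cells and 8 of 10 in WT cells, with 0 lower in each. Jak3, a kinase best known from lymphocyte cytokine receptors, rose by 3.38 ± 0.22 on the log2 scale in KO cells and by 4.02 ± 0.23 in WT cells. Stat5a, the neighbour of Stat3, rose by 2.21 ± 0.38 in KO cells and by 1.96 ± 0.39 in WT cells. Among the other receptor genes, Cntfr, which encodes the ciliary neurotrophic factor receptor, fell in KO cells (-3.12 ± 0.41) and in WT cells (-2.50 ± 0.41). Of 14 other inhibitor genes 7 rose and 2 fell in KO cells, and 5 rose and 2 fell in WT cells. The phosphatase gene Ptpn6 rose by 1.88 ± 0.21 in KO cells and by 1.72 ± 0.21 in WT cells. Of 13 other STAT3 target genes 7 rose and 2 fell in KO cells (median 1.05), and 8 rose and 3 fell in WT cells (median 2.17).

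Klf4, a pluripotency factor that is a STAT3 target in mouse stem cells, was lower in KO PGCLC at both days. It had 29.3, 32.3 and 45.6 CPM in KO PGCLC at day 3 and 151, 129 and 124 CPM in WT PGCLC. Every KO library lay below every WT library. The log2 difference was -1.90 ± 0.36 at day 3 (adjusted p = 0.00410) and -1.44 ± 0.36 at day 5 (adjusted p = 0.0117), and both kept their call in all 14 alternatives. Its step from EpiLC was 2.29 ± 0.43 in KO cells and 5.03 ± 0.47 in WT cells (interaction -2.74 ± 0.66, adjusted p = 0.0236). That interaction lost its call in 5 of 20 alternatives, among them without line A2 (-1.99, adjusted p = 0.186). Icam1, an adhesion molecule gene, was likewise lower in KO cells at day 3 (-1.02 ± 0.25, adjusted p = 0.0151) and at day 5 (-0.84 ± 0.24, adjusted p = 0.0241). The calls of Icam1 were lost in 4 and 5 of 14 alternatives, each with 1 library left out, and held without line A2 (-1.26 and -0.94). Tfcp2l1, a further STAT3 target of stem cells, rose by 2.42 ± 0.59 from EpiLC to day 3 in KO cells and by 4.98 ± 0.66 in WT cells. The difference between these steps did not pass the threshold, nor did its genotype differences at day 3 and day 5. The KO step of Tfcp2l1 was 3.80 without line A2, and it missed the threshold in the fit of the 2 KO groups alone (2.42, adjusted p = 0.0892). Naive pluripotency markers, a list of 8 that holds Klf4 and Tfcp2l1, summed to 1272 to 1503 CPM in KO PGCLC and 2452 to 2530 CPM in WT PGCLC at day 3. In EpiLC they summed to 529.7 CPM in the library labelled KO A2, to 214 and 149.7 CPM in the other KO libraries and to 270.3 to 322.4 CPM in WT libraries, and their part in these values was not tested.

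Myc and Fos are STAT3 targets as well as immediate early genes. Fos was higher in KO PGCLC at both days, while Myc passed the threshold at day 3 but not at day 5. Myc ranged from 22.1 to 45.1 CPM in KO PGCLC and from 7.74 to 11.9 CPM in WT PGCLC at day 3, higher by 1.83 ± 0.53 (adjusted p = 0.0377). Fos was higher by 1.31 ± 0.36 at day 3 (adjusted p = 0.0285) and by 1.41 ± 0.36 at day 5 (adjusted p = 0.0129). The day 3 call of Myc was lost in 7 of 14 alternatives and that of Fos in 5 of 14, while the day 5 call of Fos was lost without WT 1 alone (adjusted p = 0.0711). In all, of the 13 other STAT3 target genes 2 were higher and 2 lower in KO PGCLC at day 3 (median -0.07), and 1 higher and 2 lower at day 5 (median -0.15). The shares of all tested genes were 5% higher and 5.19% lower at day 3, and 9.83% and 7.62% at day 5.

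Of the other inhibitors, Socs2 was higher in KO PGCLC at day 3 (0.83 ± 0.16, adjusted p = 0.00455), where it averaged 139 CPM in KO and 78.7 CPM in WT cells, and at day 5 (0.63 ± 0.16, adjusted p = 0.0147). Without line A2 these were 0.74 and 0.41, both past the threshold, while the day 5 call was lost without WT 2, WT 3 or KO A2 of that day. Pias1, whose protein inhibits activated STATs, was higher at both days (0.62 ± 0.13 and 0.51 ± 0.13, adjusted p = 0.00569 and 0.0103), and kept both calls in all 14 alternatives. Jak3 was lower in KO PGCLC at day 3 (-0.63 ± 0.18, adjusted p = 0.0361) and day 5 (-0.54 ± 0.18, adjusted p = 0.0446), calls that were lost in 8 and 7 of 14 alternatives.

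In EpiLC, 7 of the 44 other pathway genes were higher in KO cells and 0 lower, where 6.92% of all tested genes were higher and 4.15% lower. Lif itself averaged 35.7 ± 32.2 CPM in KO EpiLC and 11.1 ± 3.6 CPM in WT EpiLC (SD, n = 3), higher by 1.66 ± 0.44 (adjusted p = 0.0287). Without line A2 its difference was 0.55 (adjusted p = 0.0749), and those of Jak2 (1.55 ± 0.41) and Socs5 (1.31 ± 0.37) were 0.55 and 0.51, also short of the threshold. Stat5b was higher with line A2 (1.36 ± 0.27, adjusted p = 0.0106) and without it (1.46), and its call was lost without WT 3 and in the fit of the EpiLC groups alone. Without the library labelled KO A2, 2 of the 44 passed the threshold. Over all genes, fits with 1 EpiLC library left out called 181 to 2473, against 1424 with all libraries. The shares above are those of the fit of all libraries, so the 2 are not set against a background.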

How the data were processed

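The authors deposited raw read counts by Ensembl gene for every library and a series table of CPM, whose columns are single libraries per the file headers. In 18 of 18 columns the deposited CPM are the raw counts scaled to their sum (tolerance 1e-06). According to the submitters' processing notes, trimming used Trim Galore 0.4.3.1, and the builds named are mm10 and GRCm38.p4. No source used here gives the aligner, the counter or the strand setting. Per the labels' protocols the kit was directional with poly(A) selection. The 56 rows without a gene ID (0.0559% to 0.0828% of counts) were left out.

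Counts were fitted with edgeR 4.0.16 (R 4.3.3), TMM scaling, filterByExpr (12856 genes, all 8 members among them) and the quasi-likelihood test over all 18 libraries with 6 groups, with Benjamini-Hochberg adjustment over all tested genes for each of 9 comparisons. The SE of a log2 fold change was derived from its test. Positions and exon lengths came from GENCODE M21, which matched 24990 genes. Alternatives were DESeq2 1.42.0, limma 3.58.1 on log2(CPM + 1), RLE size factors, no filter, the compared groups alone, chromosome medians as offsets, each library or line A2 left out, and the replicate name as a block. Same-named KO libraries of different stages deviated together (9 of 9 correlations above 0.1, 0.1103 to 0.5876), so the KO names, which are those of lines, pair the samples. Replicates were set against sampling noise by chi-square divided by its degrees of freedom. It was 1.14 to 1.88 between WT replicates and 4.13 to 36.0 between KO replicates. The main fit gave each gene 1 spread over all groups.

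The members and gene lists were chosen with earlier results of these data known. Named were all members, Esrrb, up to 4 genes of each list with the largest change past the threshold and a mean of 5 CPM or more where higher, and the 3 genes closest in pattern to 2 members. Results of some genes that the rule names are not reported here. The values of Klf4, Osmr and Stat5a in single groups were added after they were seen.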

Additional observations from a re-analysis of the deposited data

Results flagged for a closer look

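The step from EpiLC to day 3 differed between KO and WT cells for 2 of the 8 genes by a test of the difference itself. Of all tested genes, 6.59% passed that test. The call was lost in 8 of 20 alternatives for Socs3 and in 12 of 20 for Cish. For Socs3 the interaction was -1.72 on the log2 scale (step 2.83 in KO cells, 4.55 in WT cells), and for Cish it was -1.27 (1.03 in KO cells, 2.31 in WT cells). In EpiLC the means of both were higher in KO than in WT cells, Socs3 with 18.5 against 5.44 CPM and Cish with 3.12 against 1.98 CPM. At day 3 Socs3 averaged 133.1 CPM in both, and Cish 6.37 CPM in KO and 10.3 CPM in WT cells. WT EpiLC held 19 to 25 counts of Socs3 and 7 to 9 counts of Cish a library.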

How the results depend on the processing

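Of 23 member results past the threshold, 15 kept their call in every alternative run, 8 lost it in at least 1 and 0 reversed. Those that lost it are the EpiLC differences between genotypes of Stat3, Socs3, Junb and Pim1, the day 3 difference of Cish, the interactions of Socs3 and Cish, and the KO step of Cish, the last in the fit of the compared groups alone (adjusted p = 0.0614). Counts below are of the 8 members and of the 44 other pathway genes; the causes of these shifts were not tested.

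With no filter, 0 members passed at day 3 and 1 in the interaction with the step to day 3. DESeq2 called 11 pathway genes in EpiLC (7 with edgeR). In fits of the compared groups alone, members called numbered 0 in EpiLC, 3 at day 3, 3 at day 5, 3 between day 3 and day 5 in WT cells and 0 in the interaction, and pathway genes 0 in EpiLC, 17 in the KO step (28 in the main fit over all groups) and 14 between the days in WT cells. Without line A2, members numbered 4 at day 3, 4 at day 5, 1 and 2 between the days in KO and WT cells and 4 in the interaction. Other pathway genes then numbered 4 in EpiLC, 11 at day 3, 14 at day 5, 3 and 5 between the days in KO and WT cells, 5 in the interaction and 1 in the later one. Chromosome medians as offsets left 1 member in the interaction.

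With the replicate name as a fixed block (steps and interactions), 6 pathway genes were called in the interaction (3 without it), the KO step of Junb passed the threshold, and no other member call changed. With it as a random block (genotype comparisons, correlation 0.168), 1 member and 2 pathway genes passed in EpiLC and 2 members at day 5. WT libraries of the same number gave 0 of 9 correlations above 0.1 (-0.0479 to 0.0659). Their medians on some chromosomes did deviate alike, as on chromosome 8 with WT 2 at 0.0201, 0.045 and 0.05 (EpiLC, day 3, day 5). There WT 3 lay at -0.0143, -0.0355 and -0.0343. Whether the WT numbers pair samples cannot be told from these values.

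Leaving out 1 library at a time gave 1 to 5 members in EpiLC, 0 at day 3 (all 6 fits) and 0 to 5 in the interaction. Pathway genes ranged from 0 to 12 in EpiLC, 3 to 5 at day 3, 4 to 7 at day 5, 0 to 10 in the interaction and 0 to 1 between the days in WT cells.

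The results that changed sign were all short of the threshold with all libraries. Socs3 at day 3 was -0.019 in limma-trend and -0.011 with the random block. The step of Stat3 from day 3 to day 5 in KO cells was 0.059 in limma-trend, 0.0039 in the fit of those groups alone and 0.046 with chromosome offsets, which also gave 0.0073 for Socs3 at day 5. Without line A2, Junb at day 5 was -0.066, the Il6st interaction 0.17 and the later Pim1 interaction -0.021. With 1 library left out, the EpiLC difference of Lifr ran from -0.70 to 0.18. The interactions ran from -0.24 to 0.64 for Lifr and from -0.64 to 0.10 for Il6st. Day 3 differences ran from -0.17 to 0.0073 for Lifr and from -0.13 to 0.15 for Socs3, and the day 5 difference of Junb from -0.058 to 0.19. The later interactions ran from -0.35 to 3e-04 for Lifr, from -0.21 to 0.15 for Stat3 and from -0.088 to 0.21 for Pim1. Steps between the days in KO cells ran from -0.25 to 0.11 for Lifr, from -0.23 to 0.041 for Il6st and from -0.14 to 0.22 for Stat3.

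Over all genes, 1424 were called between genotypes in EpiLC, against 2 in the fit of those groups alone, 911 with the random block and 181 to 2473 with 1 library left out. At day 3 the count was 1310 (2716 without line A2, 621 to 1463 with 1 library left out), and at day 5 it was 2244 (3887 and 1303 to 2187). The KO step had 5394 (2161 in its own groups alone). Between the days, KO cells had 71 (46 with no filter, 172 in DESeq2, 0 alone, 873 without line A2, 214 with the fixed block) and WT cells 99 (334 in DESeq2, 3687 alone, 2016 without line A2, 207 with chromosome offsets, 387 with the fixed block), with as few as 9 and 10 when 1 library was left out. The interaction had 847 (456 alone, 1912 without line A2, 1456 with the fixed block, 362 to 1530 with 1 library left out), and the later one 0 (11 in DESeq2, 5 alone, 85 without line A2).

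Depth limits Osm, Cish and Junb in EpiLC, where WT libraries held at most 1, 9 and 15 counts of them.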
